A study of Mus musculus with 6 samples.

Results

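Macrophages of a tissue are recognised in RNA by a small set of genes, and 10 of these were followed here in mouse intervertebral discs (IVDs): Cd68, Lyz2, Csf1r, C1qa, C1qb, C1qc, Mrc1, Aif1, Cd14 and Cd163. They were found by symbol in the count files, which hold 43472 gene symbols, and all 10 passed the filter on low counts, as did 16152 genes in all. RNA-seq was made from whole IVDs of the thoracic and lumbar spine at postnatal day 20, from mice labelled as strain C57B6/J. The mutant group is Col2Cre; Adgrg6f/f, in which a Cre transgene driven by regulatory sequence of the type II collagen gene deletes the floxed adhesion receptor gene Adgrg6 (also called Gpr126), with recombination through the whole IVD according to the study. The control group has the genotype label wild type, is called Col2Cre Control in the sample titles and consists of Cre (-) littermates in the study, so that its Adgrg6 alleles and any Cre transgene are not settled by the labels. Each group has 3 libraries, and each library is a separate pool of IVDs from 2 to 3 mice.

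Macrophages take up and digest dead cells, matrix and microbes, and they are maintained by the growth factors CSF1 and IL-34, which act through the receptor that Csf1r encodes. C1qa, C1qb and C1qc encode the 3 chains of C1q, the recognition part of the first complement component, which tissue macrophages secrete. Cd68 encodes a glycoprotein of the lysosome membrane and Lyz2 a lysozyme. Mrc1 (the mannose receptor, CD206) and Cd163 (the receptor for haemoglobin bound to haptoglobin) mark resident macrophages, Cd14 encodes a co-receptor for bacterial lipopolysaccharide, and Aif1 encodes IBA1, which binds actin and calcium. None of these genes is limited to macrophages. Neutrophils and their precursors also transcribe Lyz2, monocytes transcribe Cd14, and osteoclasts derive from Csf1r-positive precursors. A healthy disc has few vessels, and macrophages in and around it are found mainly in the outer annulus, the endplate and the adjacent marrow. In RNA from whole tissue, fewer cells of a type and less RNA per cell cannot be told apart.

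The 3 C1q genes lie side by side on chromosome 4, all on the minus strand, within 18675 bases (GRCm38 chr4:136880129-136898803). Sequence upstream of the start site is shown for 2 of them, C1qb and C1qc, neighbours whose log2 CPM correlated over the 6 libraries at r = 0.897 (C1qa is not shown), and for Cd68 and Lyz2 because they had the largest differences of the 10 genes between genotypes. The sequences are those of RefSeq on GRCm38.p6, minus strand, and bases that GENCODE M21 places within the gene were left out. Capitals mark GAGGAA or its reverse complement TTCCTC, the core of the element bound by PU.1, a transcription factor needed for macrophage development that Spi1 encodes.
C1qb, chr4:136886201-136886450: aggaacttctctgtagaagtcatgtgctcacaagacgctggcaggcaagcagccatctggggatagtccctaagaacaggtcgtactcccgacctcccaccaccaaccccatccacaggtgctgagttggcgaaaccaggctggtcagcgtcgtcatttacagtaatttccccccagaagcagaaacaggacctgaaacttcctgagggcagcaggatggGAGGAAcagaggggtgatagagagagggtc
C1qc, chr4:136893066-136893164: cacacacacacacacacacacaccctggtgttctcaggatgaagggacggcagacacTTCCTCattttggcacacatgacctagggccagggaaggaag
Cd68, chr11:69666171-69666420: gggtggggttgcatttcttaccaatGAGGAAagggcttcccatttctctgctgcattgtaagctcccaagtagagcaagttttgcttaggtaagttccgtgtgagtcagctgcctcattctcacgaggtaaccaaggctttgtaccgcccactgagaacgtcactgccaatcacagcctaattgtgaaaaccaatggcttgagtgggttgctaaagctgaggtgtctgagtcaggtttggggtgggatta
Lyz2, chr10:117282322-117282522: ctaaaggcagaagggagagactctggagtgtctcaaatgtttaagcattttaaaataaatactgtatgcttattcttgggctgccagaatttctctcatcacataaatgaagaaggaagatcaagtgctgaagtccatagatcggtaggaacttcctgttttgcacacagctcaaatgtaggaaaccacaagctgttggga

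The letters occur once in each of the windows of C1qb, C1qc and Cd68 and not in that of Lyz2. The C1qb match is near the start of the gene, whereas the Cd68 match is near the far end of its window. Over the full 250 bases upstream, 5 of the 7 members that were read from the RefSeq table hold the motif on either strand, namely Aif1, C1qb, C1qc, Cd68 and Mrc1, while Cd163 and Lyz2 do not. Among all 32851 promoters of the table, 23.3% hold it in a window of the same length. For Aif1 no match remains in the 234 bases left without those that GENCODE M21 places within the gene. A match is a description of letters in the window and does not show binding.

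Between 9061491 and 12017008 reads were counted on genes per library, 40.4% to 44.2% of all reads, and log2 CPM of any pair of libraries correlated across genes at 0.899 to 0.956. CPM values are counts relative to the library size, which was scaled by TMM, a normalization that assumes most genes are unchanged. The 9 cartilage markers of the disc were all expressed, with summed levels of 82680 to 144100 CPM. Gpr126 was at 109 ± 14.7 CPM in control and 122 ± 16.1 CPM in mutant IVDs (SD, n = 3), which is summed over the whole gene and does not measure the deleted part. Single libraries stood apart in ways that bear on the values that follow. The library of control pool 1 held 3609 CPM of 6 skeletal muscle genes, against 65.0 to 148 CPM in the other libraries. The library of mutant pool 1 had the highest summed level of 15 neutrophil genes, 172 CPM, and of 13 immediate early genes, 1700 CPM, and the largest share of reads that were not aligned, 18.9% against 11.97% to 15.2%. Together the 10 members took 0.00723% to 0.0161% of gene counts.

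Of the 10 genes, Cd68 alone was higher in mutant IVDs at an unadjusted p under 0.05, and no member passed after Benjamini-Hochberg adjustment over all genes. By the same test (edgeR's quasi-likelihood test), 2.89% of all genes tested were higher and 4.32% lower at an unadjusted p under 0.05, and 0.00619%, a single gene, passed the adjusted threshold. The log2 fold change of mutant over control was above 0 for 9 of the 10 genes, with a median of 0.39, while 48.4% of all genes were above 0 and their median was -0.01. The median of the members was 0.08 without mutant pool 1, 0.66 without mutant pool 2 and 0.58 without control pool 3. Other tools gave 1 member each at an unadjusted p under 0.05, which was Lyz2 in DESeq2 and Cd68 in limma-voom with quality weights, and no member in either after adjustment. All 3 mutant libraries lay above all 3 control libraries for Cd68 alone, a separation seen in 5.45% of all genes tested. The plot of CPM by library shows this separation and the overlap of the other genes.

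**Figure D1:**
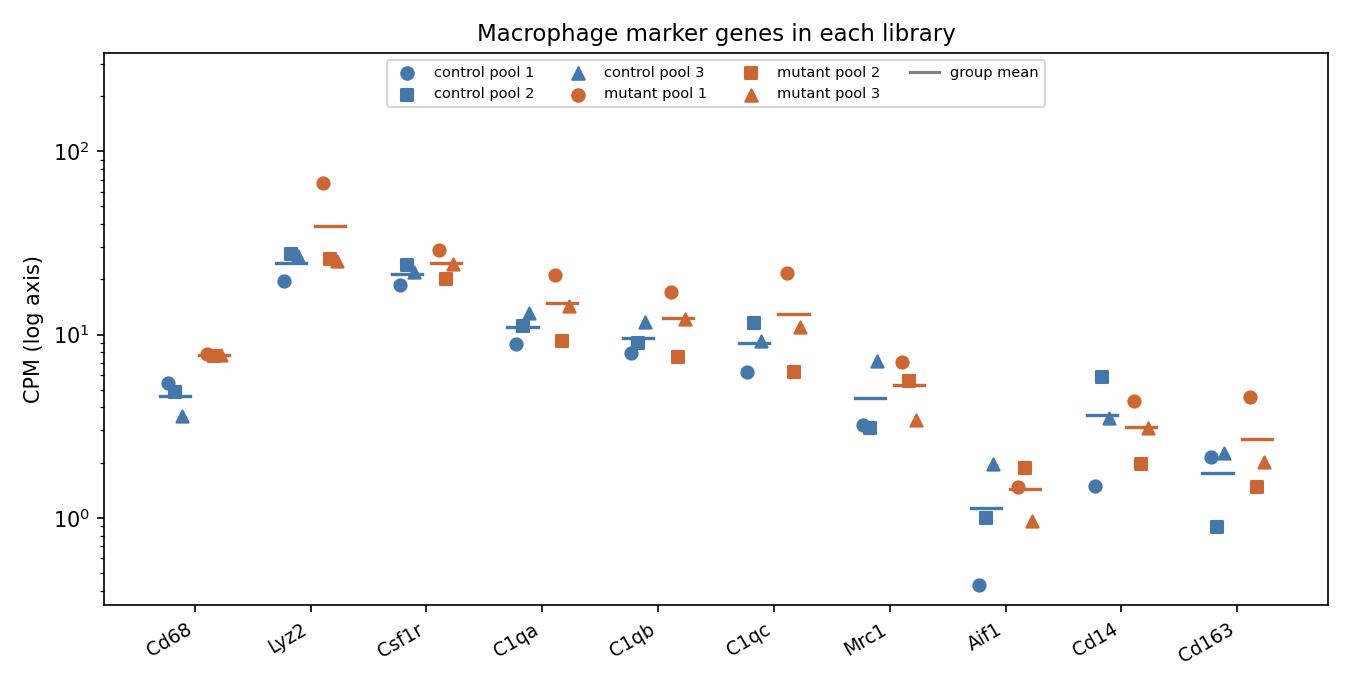
Expression of the 10 macrophage marker genes in each library, in CPM on a log axis, with control libraries in blue, mutant libraries in orange, a symbol for each pool number and a line at the group mean. The mutant libraries of Cd68 sit between 7.67 and 7.85 CPM, above the highest control library at 5.46 CPM, and for the other 9 genes the groups overlap.

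Cd68 was measured at 5.46, 4.89 and 3.60 CPM in control pools 1, 2 and 3 and at 7.85, 7.67 and 7.76 CPM in mutant pools 1, 2 and 3. The 3 mutant pools were nearly level and every control pool was below them. The control mean was 4.65 ± 0.954 CPM and the mutant mean 7.76 ± 0.0908 CPM (SD, n = 3 each). The log2 fold change was 0.74 (standard error 0.32, 95% interval 0.04 to 1.45), unadjusted p = 0.0401, adjusted p = 0.684 from edgeR. The counts behind these values were 51, 44 and 46 in control and 69, 94 and 73 in mutant libraries. The 95% Poisson interval of the count of 51, which covers counting error only, runs from 38.0 to 67.1. For the mutant counts of 69 and 73 the intervals run from 53.7 to 87.3 and from 57.2 to 91.8. Counting error was thus wider than the spread of the mutant pools. Their small SD therefore does not show how precisely the mutant level is known. The direction was the same with any library left out, at 0.59 to 0.90. The call at the unadjusted threshold was lost when control pool 2 (log2 fold change 0.78), control pool 3 (0.59), mutant pool 1 (0.77), mutant pool 2 (0.76) or mutant pool 3 (0.75) was left out and kept without control pool 1 (0.90). It was also lost in DESeq2 (0.763), with library totals (0.64), without the filter (0.760) and with the replicate block (0.759).

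Lyz2 was at 19.5, 27.5 and 26.7 CPM in control and at 66.7, 26.0 and 25.3 CPM in mutant pools 1, 2 and 3. A single mutant pool, pool 1, was far above the other 5 libraries, and the other 2 mutant pools lay within the control range. The group means were 24.6 ± 4.44 and 39.3 ± 23.7 CPM (SD, n = 3 each), and the log2 fold change of 0.67 (standard error 0.35, interval -0.11 to 1.45) was not called (adjusted p = 0.725 in edgeR). Leaving out mutant pool 1 brought it to 0.10, again with no call, whereas leaving out mutant pool 2 or 3 brought it to 0.92 and 0.91, both under 0.05 before adjustment, as was DESeq2 on all libraries (0.69). The neighbouring paralogue Lyz1, whose reads can be shared with Lyz2, had at most 1.02 CPM in any library. Markers of neutrophils and their precursors, which also transcribe Lyz2, were highest in the same pool: the summed level of 15 such genes was 17.8, 36.1 and 64.7 CPM in control and 172, 61.4 and 38.3 CPM in mutant pools 1, 2 and 3. Of these, S100a9 (27.5 CPM), Ngp (27.2), S100a8 (16.1), Ltf (15.02) and Camp (7.17) were each highest in mutant pool 1. Ly6g of the same list had no count in 5 of the 6 libraries. Their part in the Lyz2 values was not tested.

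C1qa, which encodes the A chain, was at 8.88, 11.1 and 13.1 CPM in control and at 21.2, 9.22 and 14.3 CPM in mutant libraries. Mutant pool 1 was again highest, mutant pool 2 lay within the control range and mutant pool 3 just above it. The log2 fold change was 0.42 (standard error 0.31, interval -0.27 to 1.12, adjusted p = 0.790), and it was 0.13 without mutant pool 1 and 0.70 without mutant pool 2, where it passed the unadjusted threshold. C1qb was at 7.92, 8.99 and 11.7 CPM in control and 17.0, 7.51 and 12.2 CPM in mutant libraries, with mutant pool 2 the lowest of all 6 (log2 fold change 0.35, standard error 0.32, interval -0.36 to 1.07, adjusted p = 0.825). C1qc was at 6.21, 11.6 and 9.22 CPM in control and 21.7, 6.28 and 10.9 CPM in mutant libraries (log2 fold change 0.52, standard error 0.42, interval -0.42 to 1.47, adjusted p = 0.807). Its log2 fold change was -0.03 without mutant pool 1 and 0.88 without mutant pool 2, where it passed the unadjusted threshold. For C1qb the value without these libraries was 0.08 and 0.63, above 0 and not called in either case.

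The 3 chain genes split the C1q counts in shares that varied between libraries, most for C1qc, as the stacked plot of C1q counts shows. C1qa took 35.1% to 40.1% of the counts on the 3 genes, C1qb 28.3% to 34.4% and C1qc 27.0% to 36.5%. The summed C1q counts meanwhile ranged from 215 in control pool 1 to 526 in mutant pool 1. The split did not separate the genotypes: the C1qa share averaged 37.4% ± 2.03 in control and 37.9% ± 2.37 in mutant libraries, the C1qb share 32.4% ± 3.42 and 31.2% ± 2.47, and the C1qc share 30.2% ± 5.45 and 30.9% ± 4.75 (SD, n = 3). With 3 libraries against 3, these differences were smaller than the spread within a group, and they were not tested. C1qc had its highest shares, 36.5% and 36.3%, in control pool 2 and mutant pool 1.

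**Figure D2:**
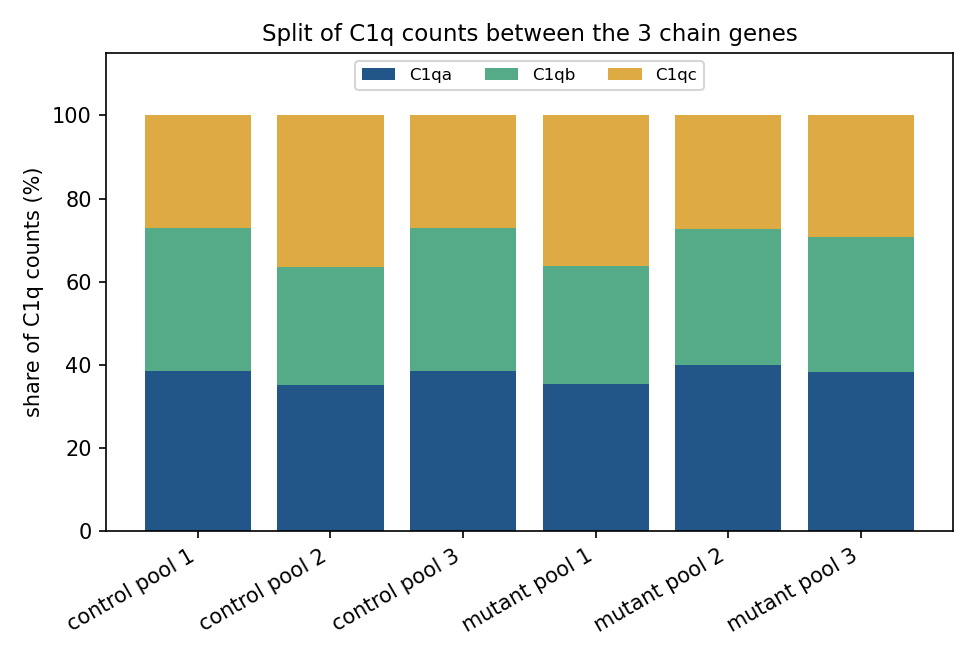
Share of the counts on C1qa, C1qb and C1qc that each gene took, in percent, in each of the 6 libraries as stacked bars that start at 0. C1qa takes 35.1% to 40.1% in every library, with no separation of control from mutant libraries.

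The ratio of Cd68 to C1q varied between libraries. Per 100 C1q counts there were 23.7, 15.4 and 10.6 Cd68 counts in control and 13.1, 33.3 and 20.7 in mutant libraries, 16.6 ± 6.65 against 22.4 ± 10.2 (SD, n = 3), so that the groups overlapped in this ratio. Mutant pool 2, with low C1q, had the highest ratio. Lyz2 per 100 C1q counts was 84.7, 87.0 and 78.6 in control and 111, 113 and 67.4 in mutant libraries.

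Csf1r, the receptor for CSF1 and IL-34 (GRCm38 chromosome 18, 61100598 to 61132149, plus strand), was at 18.5, 24.0 and 21.8 CPM in control and at 29.0, 20.0 and 24.2 CPM in mutant libraries. Of the 10 genes it had the smallest standard error and a narrow range, with control pool 1 lowest and mutant pool 1 highest. In edgeR the mutant level was 0.19 higher on the log2 scale, with a standard error of 0.20 and an interval of -0.26 to 0.63 (adjusted p = 0.851), and without mutant pool 1 it was 0.08 higher. Csf1r shares 873 exonic bases with Hmgxb3 on the opposite strand, which had 1954 counts against 1396 for Csf1r over the 6 libraries and did not separate the groups either (log2 fold change -0.01, adjusted p = 0.991). Whether the counting used strand is not given in the sources used here. It is therefore not known how reads on the shared bases were treated.

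Mrc1, the mannose receptor (chromosome 2, 14229392 to 14332057, plus strand), was at 3.21, 3.11 and 7.19 CPM in control and 7.06, 5.55 and 3.40 CPM in mutant libraries. Both groups held a low and a high pool, so the groups overlapped fully (log2 fold change 0.23, standard error 0.46, interval -0.79 to 1.25, adjusted p = 0.932), and the value was 0.76 without control pool 3 and 0.02 without control pool 2. Cd163, the haemoglobin scavenger receptor (chromosome 6, 124304656 to 124330527, plus strand), was at 2.14, 0.888 and 2.27 CPM in control and 4.55, 1.47 and 2.02 CPM in mutant libraries. Mutant pool 1 stood above the rest, and the other 2 mutant pools were inside the control range (log2 fold change 0.58, standard error 0.63, interval -0.82 to 1.98, adjusted p = 0.851). Without mutant pool 1 it was 0.01. These are small counts, 8 to 40 reads for Cd163 and 28 to 92 for Mrc1.

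Cd14 (chromosome 18, 36725067 to 36726798, minus strand) was the only member with a lower mutant mean. It was at 1.498, 5.88 and 3.52 CPM in control and 4.33, 1.96 and 3.08 CPM in mutant libraries, and both the highest and the lowest library were controls. The log2 fold change was -0.22 (standard error 0.57, interval -1.49 to 1.04, adjusted p = 0.945), and it was 0.29 without control pool 2, 0.05 without mutant pool 2 and -0.57 without control pool 1. Aif1 (chromosome 17, 35170991 to 35176068, minus strand) was the scarcest by count, with 4, 9 and 25 reads in control and 13, 23 and 9 in mutant libraries, or 0.428, 0.999 and 1.95 CPM against 1.48, 1.88 and 0.956 CPM. The count of 4 has a 95% Poisson interval of 1.09 to 10.2. The log2 fold change was 0.33 (standard error 0.69, interval -1.20 to 1.86, adjusted p = 0.936), at -0.03 without control pool 1 and 1.02 without control pool 3. Both intervals span changes in either direction, so that no difference of either gene was detectable with these libraries. Control pools also differed by more than counting error, Cd14 with 14 reads in control pool 1 (95% Poisson interval 7.65 to 23.5) and 53 in control pool 2 (39.7 to 69.3), and Aif1 with 25 reads in control pool 3 (16.2 to 36.9) beside the 4 of control pool 1.

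**Figure D3:**
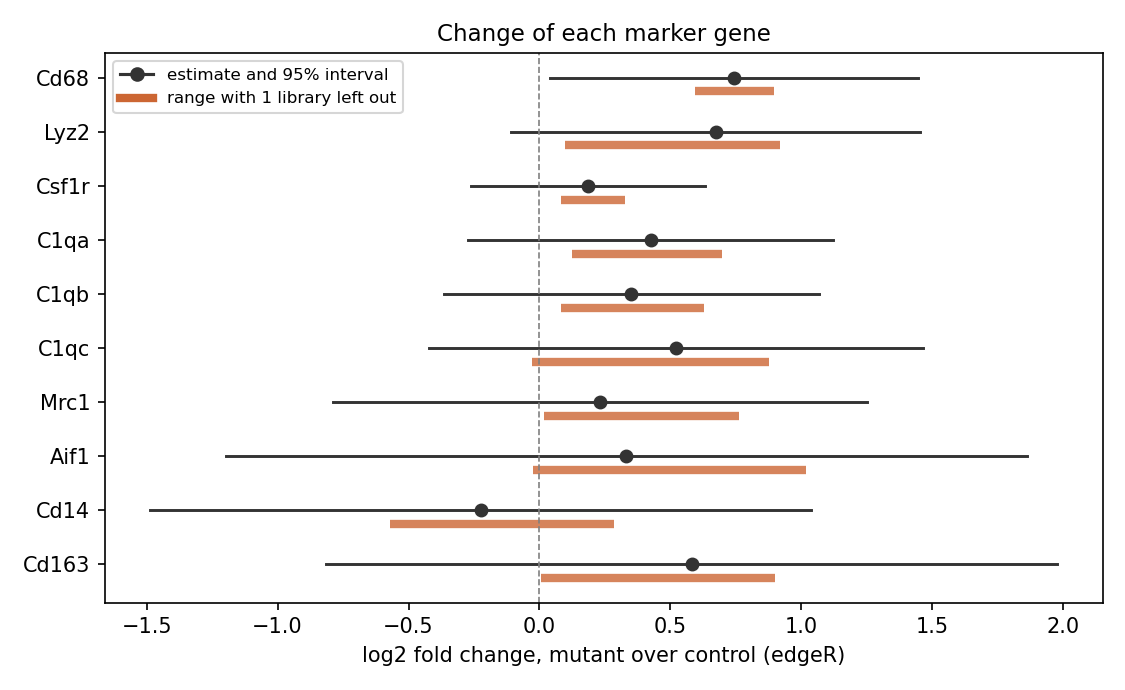
Log2 fold change of mutant over control for each gene from edgeR, with the 95% interval as a black line and, in orange below it, the range of estimates when each of the 6 libraries was left out in turn. The interval of Cd68 alone, 0.04 to 1.45, lies above 0, and the orange ranges of C1qc, Aif1 and Cd14 cross 0.

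Compared per kilobase of exon, 3 of the 10 members held the same rank in every library. Lyz2 was first in all 6 libraries, with a mean of 24.3 CPM per kb, C1qa followed at 12.5 and C1qb at 9.99 CPM per kb, also in all 6 libraries. C1qc (5.69 CPM per kb), Cd68 (4.94) and Csf1r (3.97) exchanged ranks 4 to 6 between libraries, so these neighbours were not separated. Cd14 (1.95 CPM per kb), Aif1 (0.837), Mrc1 (0.772) and Cd163 (0.407) followed, with ranks that also overlapped. Among 15374 tested genes with a length, Lyz2 was at percentile 89.4 of this level, C1qa at 78.7, Cd68 at 56.3, Csf1r at 50.3 and Cd163 at 5.25. The genes of resident scavenger receptors had the lowest means of the 10, and the lysozyme and C1q genes the highest.

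Seen over libraries and not over genotypes, the same pools recurred at the extremes, while no members shared the full order of the 6 libraries. Mutant pool 1 was the highest library for 7 of the 10 genes, control pool 3 for 2 and control pool 2 for 1, and control pool 1, the library with the skeletal muscle RNA, was the lowest for 6. Without control pool 1 the median log2 fold change of the members was 0.28. The part of the muscle RNA in the levels of that pool was not tested. Summed over the members, the libraries held 689, 891 and 1293 counts in control and 1589, 1072 and 981 in mutant pools 1, 2 and 3. As a share of gene counts this was 0.00954% ± 0.00217 in control and 0.0117% ± 0.00385 in mutant libraries (SD, n = 3), with mutant pools 2 and 3 inside the control range. The pair C1qa and C1qb correlated over the 6 libraries at r = 0.990 and Csf1r and C1qc at r = 0.982, in log2 CPM, while Mrc1 and Aif1 formed a pair of their own at r = 0.826. Cd68 correlated with no other member above 0.377. All of these points share their library and its depth, and are given as a description.

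**Figure D4:**
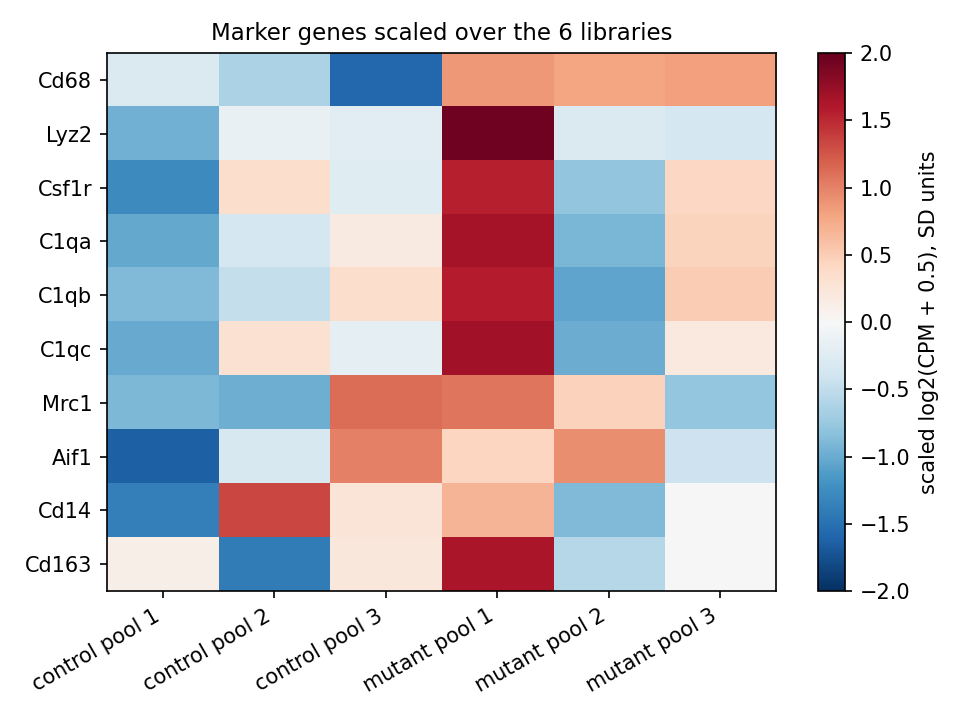
Log2(CPM + 0.5) of each gene, scaled to mean 0 and SD 1 over the 6 libraries, with libraries in columns and genes in rows, red for high and blue for low. The column of mutant pool 1 is the highest for 7 genes, and Cd68 is the only row whose 3 mutant libraries are all above its 3 control libraries.

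The average scaled pattern of the 10 genes was compared with the pattern of 16142 other genes. Among the 10 most similar were Atxn7l1os2 (r = 0.989), Gm13341 (0.986), Fam32a (0.981), Gm26695 (0.981), 0610040F04Rik (0.977), Mfap5 (0.976), Pggt1b (0.9753), Plac8 (0.972) and 4931414P19Rik (0.969), each over 6 libraries. The median r was 0.02 over all genes, 0.65 over 18 other macrophage and monocyte genes, 0.78 over 10 genes of all leukocytes and 0.81 over 11 neutrophil genes. Mpeg1, a pore-forming protein of macrophages, had r = 0.959 and the neutrophil protease gene Elane r = 0.949, whereas Mertk, a receptor for dying cells, had r = -0.677. The median r was 0.66 over 3 mast cell genes and 0.64 over 7 dendritic cell and MHC class II genes. The 13 immediate early genes had a median r of 0.60 and the 8 neuron and myelin genes of 0.56. The last 3 of these lists also had their highest summed level in mutant pool 1. It was 151 CPM for the dendritic and MHC class II genes, 1700 CPM for the immediate early genes and 3970 CPM for the neuron and myelin genes. The part of these lists in the pattern was not tested.

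Of 30 other macrophage and monocyte genes, 18 passed the filter, none passed at an unadjusted p under 0.05 in either direction, 12 of the 18 had a log2 fold change above 0, and the median was 0.20. Among those above 0 were Ly6c2 at 1.03 (adjusted p = 0.833), Mpeg1 at 0.89 (adjusted p = 0.787), Fcgr3, an Fc receptor, at 0.65 (adjusted p = 0.821) and Fcer1g, the signalling chain of Fc receptors, at 0.65 (adjusted p = 0.773), and for Fcer1g every mutant library was above every control. Ly6c2 was at 0.214, 1.22 and 2.03 CPM in control and 5.69, 1.31 and 0.319 CPM in mutant pools 1, 2 and 3. Mutant pools 2 and 3 thus lay within its control range. Mpeg1 was at 1.28, 1.44 and 2.11 against 5.46, 1.31 and 2.34 CPM, also highest in mutant pool 1. For Fcgr3, at 5.89, 1.78 and 1.33 against 3.755, 4.57 and 5.74 CPM, control pool 1 was the highest library. The lowest of the 18 was Tyrobp, an adaptor of activating receptors, at -0.62 (adjusted p = 0.807). Vsig4, a complement receptor, did not pass the filter and had every mutant library below every control, at 0.321, 0.333 and 2.42 CPM in control and 0.228, 0 and 0 CPM in mutant libraries. Emr1, the F4/80 antigen gene now named Adgre1, was at 1.498, 3.78 and 7.03 CPM in control and 5.24, 0.735 and 2.55 CPM in mutant libraries (log2 fold change -0.56, adjusted p = 0.879), and the log2 fold change was 0.09 without control pool 3. Itgam, the CD11b integrin chain, had a log2 fold change of -0.57 (adjusted p = 0.857), which was 0.33 without control pool 3. The most abundant of the list were F13a1, a clotting factor subunit that macrophages store, at 73.0 ± 16.6 CPM in control and 64.6 ± 15.3 CPM in mutant libraries, and Mertk at 48.9 ± 13.1 and 42.0 ± 11.8 CPM (SD, n = 3). Their log2 fold changes of -0.18 and -0.21 were 0.02 and 0.04 without control pool 1. Irf8 was listed at 0 in every library.

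Of 11 genes transcribed by all leukocytes, 10 passed the filter and 2 were higher at an unadjusted p under 0.05. Coro1a, an actin-binding protein of leukocytes, was at 7.06, 5.995 and 5.55 CPM in control and 21.1, 6.69 and 8.82 CPM in mutant libraries (log2 fold change 0.97, standard error 0.41, unadjusted p = 0.0408, adjusted p = 0.684). The call was lost without mutant pool 1, where the log2 fold change was 0.36, and without control pool 2 (0.94) or control pool 3 (0.89). Coro1a shares 26 exonic bases with Bola2 on the other strand. Laptm5, a lysosomal membrane protein of leukocytes, was at 4.28, 4.33 and 6.96 CPM in control and 11.4, 7.997 and 7.33 CPM in mutant libraries, with no overlap (log2 fold change 0.77, standard error 0.34, unadjusted p = 0.0455, adjusted p = 0.691). This call too was lost without control pool 1 (0.67), control pool 2 (0.65), mutant pool 1 (0.59) or mutant pool 2 (0.86). Ptprc, which encodes CD45, had a log2 fold change of -0.42 (adjusted p = 0.918) that was 0.04 without control pool 2, and Lcp1, an actin-bundling protein, one of 0.52 (adjusted p = 0.801). Lcp1 was at 4.17, 7.22 and 8.60 CPM in control and 14.1, 9.47 and 5.31 CPM in mutant libraries, which overlap, with mutant pool 1 the highest.

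Of the ligands of the Csf1r receptor, Csf1 was called and Il34 was not, and the difference between them was not tested. Csf1 was at 13.7, 11.9 and 8.36 CPM in control and 19.0, 18.7 and 21.1 CPM in mutant libraries, so that every mutant pool was above every control pool. Its log2 fold change was 0.80 (standard error 0.23, interval 0.28 to 1.31), unadjusted p = 0.00605, adjusted p = 0.676, and it stayed at 0.62 to 0.98 and under the unadjusted threshold when any library was left out. Il34 was at 12.5, 15.1 and 18.4 CPM in control and 14.9, 11.8 and 13.6 CPM in mutant libraries (log2 fold change -0.20, standard error 0.22, adjusted p = 0.857). Of the list of 7 colony stimulating factors and receptors, 4 passed the filter and Csf1 alone was called. The most abundant, Csf2ra, a receptor chain for GM-CSF, had a log2 fold change of 0.07 (adjusted p = 0.977) that was below 0 without control pool 1 (-0.18), mutant pool 1 (-0.16) or mutant pool 3 (-0.08), with library totals (-0.07) and in limma-voom (-0.03).

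Of 12 complement genes around C1q, 11 passed the filter and 3 were higher at an unadjusted p under 0.05, none lower. C4b, the component cleaved after C1 activation, was at 47.6, 90.4 and 47.7 CPM in control and 156, 70.0 and 98.8 CPM in mutant libraries, which overlap (log2 fold change 0.81, standard error 0.33, unadjusted p = 0.0336, adjusted p = 0.676). It was not called without control pool 1 (0.67), control pool 3 (0.65), mutant pool 1 (0.49) or mutant pool 3 (0.87). Serping1, the C1 inhibitor, was at 24.2, 26.2 and 25.8 CPM in control and 32.3, 31.7 and 39.2 CPM in mutant libraries, with no overlap (log2 fold change 0.44, standard error 0.16, unadjusted p = 0.0239, adjusted p = 0.676). It was not called without control pool 1 (0.42), control pool 2 (0.45) or mutant pool 3 (0.34). C5ar1, a receptor for the C5a fragment, was above all controls in every mutant library at very low levels, 0.235 to 1.11 against 1.38 to 2.12 CPM (log2 fold change 1.75, standard error 0.74, unadjusted p = 0.0379, adjusted p = 0.678). It lost this call without control pool 1 (1.52), control pool 3 (1.37), mutant pool 1 (1.71), mutant pool 2 (1.65) or mutant pool 3 (1.92). The proteases that bind C1q, C1ra and C1s1, had log2 fold changes of 0.25 (adjusted p = 0.902) and 0.42 (adjusted p = 0.725). C1ra was at -0.03 without mutant pool 2, and C1s1 passed the unadjusted threshold without control pool 1 (0.56) or mutant pool 2 (0.56).

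Around Cd14, 9 of 12 genes of the Toll-like receptor pathway passed the filter and 2 were higher at an unadjusted p under 0.05. Lbp, which carries lipopolysaccharide to CD14, was at 62.9, 101 and 65.8 CPM in control and 113, 123 and 114 CPM in mutant libraries, with no overlap (log2 fold change 0.61, standard error 0.21, unadjusted p = 0.0152, adjusted p = 0.676), a call that was lost without control pool 3 (0.52). Ticam1, the adaptor TRIF, was at 23.4, 16.8 and 13.8 against 33.9, 22.2 and 29.96 CPM (log2 fold change 0.67, standard error 0.24, unadjusted p = 0.0196, adjusted p = 0.676). It was not called without control pool 2 (0.62), control pool 3 (0.52), mutant pool 1 (0.57) or mutant pool 3 (0.64). The lipopolysaccharide receptor Tlr4 had a log2 fold change of 0.14 (adjusted p = 0.943), which was -0.03 without control pool 1 and -0.14 without mutant pool 2. Its partner Ly96 was at 0.61 (standard error 0.86, adjusted p = 0.892) and the kinase gene Irak1 at 0.26 (adjusted p = 0.776). Ly96 had 0.535, 1.89 and 0.547 CPM in control and 0.228, 2.20 and 2.02 CPM in mutant libraries, so that mutant pool 1 was the lowest library. Myd88 was listed at 0 in every library, and its exons overlap 290 bases of Acaa1a on the opposite strand.

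Around Cd163, 9 of 10 genes for haemoglobin and iron handling passed the filter and Hmox1, haem oxygenase, alone was called. It was at 5.67, 2.78 and 3.83 CPM in control and 8.88, 5.79 and 8.07 CPM in mutant libraries, with no overlap but a narrow gap between the groups (log2 fold change 0.88, standard error 0.38, unadjusted p = 0.0400, adjusted p = 0.684). The call was lost without control pool 2 (0.67), control pool 3 (0.84), mutant pool 1 (0.79) or mutant pool 3 (0.84). Haptoglobin, Hp, had a log2 fold change of -0.18 (adjusted p = 0.912). The ferritin genes Fth1 and Ftl1 were near 0, at -0.07 and 0.02, and turned direction with single libraries left out. Red blood cell precursor genes summed to 42.5 to 348 CPM in control and 218 to 459 CPM in mutant libraries, all 10 of these genes that were tested had a log2 fold change above 0 (median 0.95), and their part in the Hmox1 values was not tested. The anion exchanger gene Slc4a1 alone among them was called, at 4.495, 1.11 and 1.88 CPM in control and 15.4, 26.4 and 5.95 CPM in mutant libraries (log2 fold change 2.68, standard error 0.60, unadjusted p = 0.00114, adjusted p = 0.553).

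The 14 lysosome genes, the compartment of the CD68 protein, had no call in either direction and a median log2 fold change of 0.03. The most abundant, Psap, was at 0.16 (adjusted p = 0.864) and Ctsd, cathepsin D, at 0.08 (adjusted p = 0.936), which was -0.03 with library totals. Inflammatory cytokines were close to undetected: of 12 listed genes 2 passed the filter and neither was called, Tnf had at most 0.114 CPM, Il1b at most 0.910 CPM and Il6 at most 0.625 CPM in any library, and Ccl4 and Cxcl2 were listed at 0. Of 10 genes of alternative activation 4 passed, with no call.

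Markers of other cell types that the whole disc could hold were measured beside the members, and the plot of summed lists gives them by library. Of 15 neutrophil genes, 11 passed the filter, all 11 had a log2 fold change above 0 and 2 were called, Mpo at 2.15 (unadjusted p = 0.000661, adjusted p = 0.534) and Prtn3 at 2.26 (unadjusted p = 0.0285, adjusted p = 0.676), the latter not without mutant pool 1 (1.57). For Elane, Ngp, Camp, Ltf and S100a9 of these 11, mutant pool 1 alone lay above all controls and the other mutant pools did not. Of 12 osteoclast genes 8 passed and 2 were called, Nfatc1 at 0.50 (unadjusted p = 0.0123, adjusted p = 0.676) and Car2 at 1.08 (unadjusted p = 0.0105, adjusted p = 0.676), while of the 6 not called Itgb3, an integrin chain, was at 0.61 (adjusted p = 0.691, every mutant library above every control), Acp5 at 0.28 (adjusted p = 0.945), Ctsk, cathepsin K, at 0.20 (adjusted p = 0.840), Tnfrsf11a, the RANK receptor, was at -0.63 (adjusted p = 0.823), Atp6v0d2 at -0.61 (adjusted p = 0.830) and Mmp9 at -0.09 (adjusted p = 0.966). Calcr, the calcitonin receptor, did not pass the filter and was at 0.535 to 4.46 CPM in control and 0.114 to 0.490 CPM in mutant libraries, with every mutant library below every control. The summed level of the osteoclast list was 184 to 254 CPM in control and 194 to 337 CPM in mutant libraries, and the highest was mutant pool 2. Acp5 was at 35.3, 26.1 and 23.5 CPM in control and 10.4, 84.2 and 7.54 CPM in mutant pools 1, 2 and 3. Mutant pools 1 and 3 thus lay below every control, and mutant pool 2 alone lay above. The microglia list, relevant where nerve tissue was taken along, had 3 of 8 genes past the filter, all 3 with a log2 fold change above 0 (median 0.77). Its defining gene P2ry12 had at most 2.74 CPM, and Tmem119, which bone-forming cells also transcribe, was called at 0.77 (unadjusted p = 0.0138, adjusted p = 0.676), though not without control pool 3 (0.62) or mutant pool 2 (0.50). Fcrls, at 0.82 (adjusted p = 0.742 in edgeR), had every mutant library above every control, and Olfml3 was at 0.48 (adjusted p = 0.7495), and neither was called. Neuron and myelin genes summed to 220 to 1885 CPM in control and 930 to 3970 CPM in mutant libraries, and 2 of 8 were called higher, Gfap at 1.93 (unadjusted p = 0.00776, adjusted p = 0.676) and Nefl at 2.94 (unadjusted p = 0.0254, adjusted p = 0.676), the latter not without mutant pool 1 (2.05). Of the cartilage markers Matn3, a matrix protein, was called lower at -0.78 (unadjusted p = 0.0178, adjusted p = 0.676), though not without control pool 1 (-0.52), mutant pool 2 (-0.72) or mutant pool 3 (-0.60). The 6 skeletal muscle genes Acta1, Ckm, Myh4, Myh1, Tnnt3 and Mylpf were called lower. Without control pool 1 none was called lower, and Acta1 (1.48), Ckm (1.21) and Myh1 (1.69) were called higher. None of 12 endothelial, 3 tested lymphocyte, 7 tested dendritic and MHC class II, or 3 tested mast cell genes was called. Of 13 immediate early genes, which respond within minutes to handling as well as to signals, 11 were called higher, namely Fos, Fosb, Jun, Junb, Egr1, Ier2, Ier3, Atf3, Nr4a1, Zfp36 and Dusp1. Without mutant pool 1 the call was lost for Junb (0.21), Egr1 (0.92), Ier2 (0.27), Ier3 (0.56), Nr4a1 (0.37) and Dusp1 (0.49), and these except Egr1 also lost it without 1 or more of the other libraries. The part of these cell types and genes in the values of the members was not tested.

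**Figure D5:**
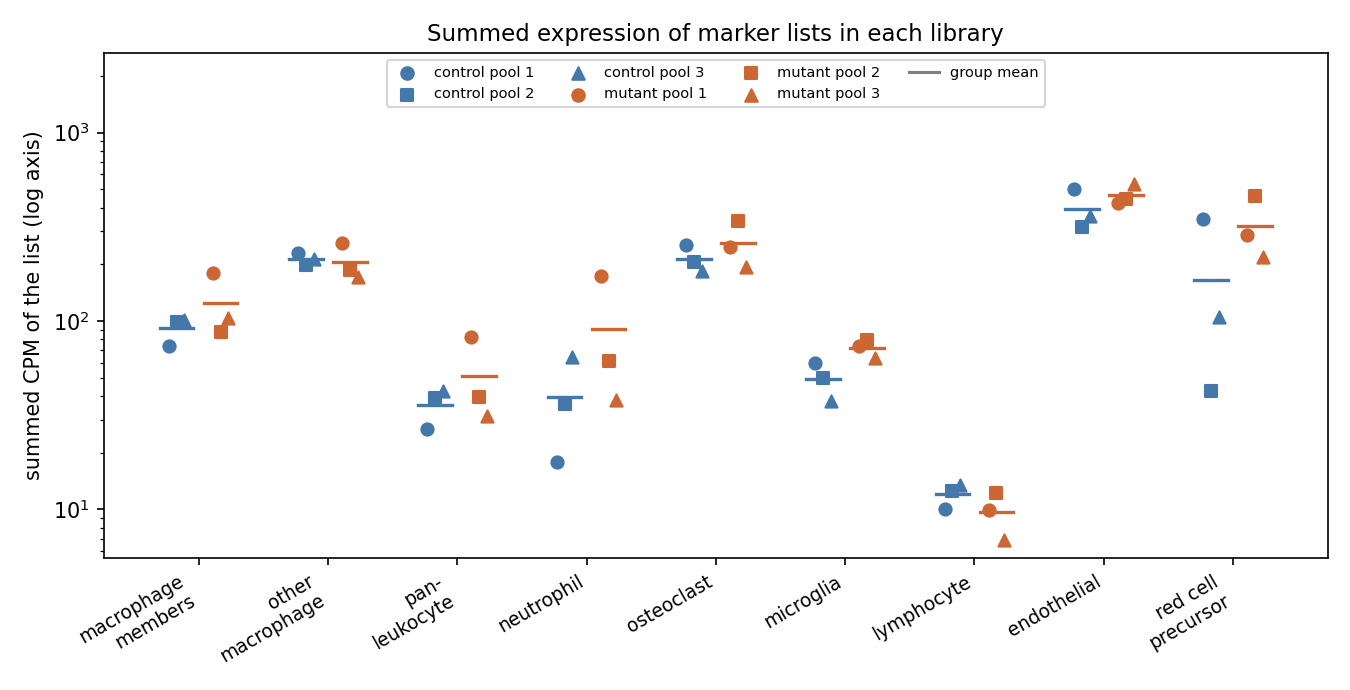
Summed CPM of the genes of each marker list in each library, on a log axis, with control libraries in blue, mutant libraries in orange, a symbol for each pool number and a line at the group mean. The 10 members sum to 73.7 to 101 CPM in control and 87.5 to 181 CPM in mutant libraries, and mutant pool 1 is highest both there and for the neutrophil list at 172 CPM.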

How the data were processed

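Poly(A) RNA of 6 IVD pools was sequenced in paired ends. The authors deposited, for each library, the raw count of reads per gene symbol, not normalized. The submitters' processing notes name STAR 2.5.3a, HTSeq and DESeq2, whereas the methods name Cutadapt, FastQC and HISAT2 on GRCm38, and neither gives a strand setting. A table of the authors' own comparison, with normalized values, fold changes and p-values, was not used. Counts were normalized by TMM, filtered with filterByExpr (count minimum 10) and compared with edgeR 4.0.16 (quasi-likelihood test, Benjamini-Hochberg adjustment over all genes tested) in R 4.3.3, after the fit had been tested on simulated data. The standard error is the log2 fold change divided by the square root of F. Intervals are 95%. Alternatives were RLE size factors, library totals without TMM, no filter, DESeq2 1.42.0 without a prior, limma 3.58.1 (voom with quality weights), the replicate number as a block and each library left out. Coordinates and exon lengths are from GENCODE M21 on GRCm38. The members and gene lists were chosen with earlier results of these data known. Named were the members, list genes with an unadjusted p under 0.05, the 2 most abundant genes and the pathway partners of the lists around the members, genes overlapping a member, and the 10 genes most like the members over libraries. For the lists of other cell types the most abundant genes are given as sums and not by name, and values for called muscle and immediate early genes are given only in part, which departs from the rule of naming these in every list. The genes not called in the osteoclast list, and Ly6c2, Mpeg1, Fcgr3, Fcer1g, Tyrobp, Vsig4, Fcrls, Olfml3 and the neutrophil genes Elane, S100a9, Ngp, S100a8, Ltf and Camp, were named after their values were seen. Reads carry no molecular identifiers, so count intervals cover counting error only. One gene among those most similar in pattern is not reported here.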

Additional observations from a re-analysis of the deposited data

How the results depend on the processing

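No member passed the adjusted threshold under any of the 12 alternatives. At an unadjusted p under 0.05 the count of members was 1 with RLE size factors and limma-voom (Cd68) and with no filter and DESeq2 (Lyz2 and not Cd68), 0 with library totals, and 0 to 3 with single libraries left out, where the 3 without mutant replicate 2 were C1qa, C1qc and Lyz2. Over all member results and alternatives, 101 kept their direction and side of that threshold, 9 lost the call, 6 gained one and 4 turned direction. The median log2 fold change of the members was 0.23 with library totals, where the median of all genes was -0.13, and 0.081 to 0.66 with single libraries left out. Genes called at the unadjusted threshold numbered 2276 without the filter, against 1164 with it, and 618 to 2427 with single libraries left out.

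Among the members and those genes of the lists around them that have values under the alternatives here, turned directions were confined to values with an interval across 0, and the cause was not tested. Other genes of these lists are not covered. Of the 6 called muscle genes, Myh4 was -0.18 without control pool 1 and the others turned, with ranges over single libraries left out of -3.54 to 1.48 for Acta1, -3.63 to 1.21 for Ckm, -6.04 to 1.69 for Myh1, -2.496 to 0.26 for Tnnt3 and -3.71 to 0.81 for Mylpf, and Acta1 was 0.16 in limma-voom. With single libraries left out, the ranges were -0.028 to 0.88 for C1qc, -0.025 to 1.02 for Aif1, -0.57 to 0.29 for Cd14, -1.30 to 0.091 for Emr1, -1.11 to 0.33 for Itgam, -0.83 to 0.043 for Ptprc, -0.032 to 0.52 for C1ra, -0.14 to 0.43 for Tlr4, -0.35 to 0.021 for F13a1, -0.45 to 0.045 for Mertk, -0.18 to 0.46 for Csf2ra, -0.30 to 0.12 for Fth1, -0.079 to 0.13 for Ftl1 and -0.15 to 0.15 for Hmgxb3. With library totals, Csf2ra was -0.070, Ftl1 -0.11 and Ctsd -0.033, and in limma-voom Csf2ra was -0.031. Hmgxb3 was 0.0023 without the filter and 0.0021 in DESeq2.

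Deviations of same-numbered control and mutant libraries from their group means correlated at 0.129, -0.172 and 0.0930. With 3 libraries per group, these values cannot decide whether the numbers pair the samples. With a replicate block 0 members passed at an unadjusted p under 0.05 and Cd68 was at 0.76 and not called, and 1002 genes were called. Aif1 and Cd163 had as few as 4 and 8 reads in a library, and control pools differed by more than counting error for Cd14 and Aif1, as given above. The Cd163 counts of 8 in control pool 2 (Poisson interval 3.45 to 15.8) and 29 in control pool 3 (19.4 to 41.7) come from libraries of different size. Relative to library size these 2 intervals overlap. Overlap alone does not settle whether these pools differed by more than counting error, which was not tested for Cd163.

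Of the called genes that are no members, these were not called at the unadjusted threshold under another setting. With DESeq2 they were Laptm5 (0.79), C5ar1 (1.79), Prtn3 (2.29), Junb and Nr4a1, and DESeq2 gave no p for Acta1, Ckm, Myh1, Tnnt3 and Mylpf. In limma-voom they were Coro1a (0.78), C4b (0.64), C5ar1 (1.55), Prtn3 (2.26), Nefl (2.56), Fosb, Junb, Ier2 and the 6 muscle genes. The muscle folds were 0.16 for Acta1, -0.0021 for Ckm, -1.18 for Myh4, -0.26 for Myh1, -0.51 for Tnnt3 and -0.42 for Mylpf. In the main edgeR fit they ran from -5.06 to -2.02. With library totals they were Coro1a (0.82), Laptm5 (0.62), Serping1 (0.32), Hmox1 (0.76), Ier2, Ier3, Nr4a1 and Dusp1, and without the filter C5ar1 (1.76) and Nr4a1. With the replicate block they were Laptm5 (0.78), C4b (0.81), Serping1 (0.43), Prtn3 (2.18), Junb, Ier2, Nr4a1 and the 6 muscle genes. The muscle folds were then -0.092 for Acta1, -0.30 for Ckm, -1.74 for Myh4, -0.13 for Myh1, -0.85 for Tnnt3 and -0.98 for Mylpf.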
